A study of Homo sapiens with 12 samples.

Results

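The mitochondrial ribosome, or mitoribosome, is the machine that translates the few mRNAs encoded by mitochondrial DNA, all of which specify subunits of the respiratory chain. Its rRNAs come from mitochondrial DNA as well, whereas all of its proteins are encoded in the nucleus, made in the cytosol and imported. The genes described here are those whose symbol is MRPL or MRPS, a number and at most 1 letter, the names of the proteins of the large and the small subunit. The table held 78 such genes among 59276 features, 49 of the large and 29 of the small subunit by symbol. All 78 reached a TPM of 1 or more in 3 or more libraries, the filter on low values, and were among the 11939 features tested.

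RNA-seq was performed on MM1S cells, a human multiple myeloma line, in 12 libraries. The 3 libraries labelled day 0 are called untreated here, although their labels also give NGI-1 as the treatment. NGI-1 is a small molecule that inhibits oligosaccharyltransferase (OST), the complex that attaches N-glycans to proteins in the endoplasmic reticulum, and 3 libraries each came from cells kept in 10 μM NGI-1 for 2, 3 and 5 days. Nothing in the labels places the 3 libraries of a day in separate cultures, so the tests measure the spread between these libraries. All comparisons with day 0 share the same untreated libraries, and no untreated library accompanied the later days.

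The deposited values are log2(TPM + 1), where TPM is the length-corrected share of a transcript in a library, scaled to the same total in every library. TPM keeps no read counts, so the depth behind each value is unknown beyond the more than 60 M paired-end reads that the labels state. Of 10 plasma cell markers, all 10 were above 0 in every library. Of 10 markers of other cell types, CD3D, COL1A2 and EPCAM were listed at 0 in all 12 libraries. CD3E and KRT18 were above 0 in every library, with means of 3.00 and 13.2 TPM on day 0 and 6.33 and 17.9 TPM on day 2. The summed TPM of the 10 was 16.9 ± 1.82 on day 0, 24.4 ± 3.73 on day 2, 12.6 ± 1.99 on day 3 and 9.53 ± 1.70 on day 5 (SD, n = 3 each). A gene was called when limma's adjusted p was under 0.05 and the log2 fold change was over 0.5 in size. Over all tested features the median log2 fold change was -0.18 on day 2, -0.73 on day 3 and -0.99 on day 5, so each change below should be read against these values. A second scale, called rescaled, divides each library by 1 factor that centres its features. The factors were 1.49 to 1.505 on day 0, 1.26 to 1.297 on day 2, 0.768 to 0.891 on day 3 and 0.573 to 0.738 on day 5. Replicate 2 of day 3 (0.891) and replicate 3 of day 5 (0.738) lay nearest to the earlier days.

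In untreated cells the mitoribosomal protein genes were well expressed. Each of the 78 lay above the median of the tested features, 11.6 TPM, and their own median was 73.8 TPM. The most abundant was MRPL15, a homolog of a bacterial large subunit protein, at 256, 274.6 and 277 TPM in the untreated libraries. MRPL24 at 249 TPM and MRPL53 at 245 TPM followed in the large subunit, and MRPS21 (209 TPM), MRPS24 (168 TPM) and MRPS34 (162 TPM) led the small subunit. MRPL57 was lowest, with 12.9, 12.1 and 13.5 TPM, and MRPS31 (17.2 TPM), MRPL50 (17.4 TPM), MRPS17 (19.9 TPM), MRPS26 (20.6 TPM) and MRPL10 (23.6 TPM) were also near the lower end. The highest of the 78 was 21.0 times the lowest, although the proteins are assembled into 1 particle.

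The levels of the 78 genes drew apart upon NGI-1 treatment. The matching spread of levels over all tested features was not computed, so the widening is no result particular to the members. The highest member was 22.5 times the lowest on day 2, 38.2 times on day 3 and 45.03 times on day 5, and the SD of log2(TPM + 1) over the 78 genes was 0.94 on day 0, 0.99 on day 2, 1.21 on day 3 and 1.32 on day 5. MRPL15 kept 307, 265 and 244 TPM on day 5, values that overlapped with day 0, while MRPS26 was lowest at 4.54, 7.18 and 6.40 TPM. All 78 genes stayed above the median of the tested features on every day.

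Together the 78 genes made up 0.688% ± 0.0202 (SD, n = 3) of the TPM of untreated cells. Their share was 0.528% ± 0.00672 on day 2, 0.495% ± 0.00530 on day 3 and 0.441% ± 0.00200 on day 5 (SD, n = 3 each). The lowest untreated library, at 0.674%, lay above the highest treated library, at 0.535%, and the shares of the 4 days did not overlap. The 79 cytoplasmic ribosomal protein genes went the other way in these libraries, from 28.9% ± 0.546 on day 0 to 48.7% ± 0.878 on day 5 (SD, n = 3 each). The 13 mitochondrially encoded mRNAs, which the mitoribosome translates, took 9.42% ± 0.699 on day 0 and 13.1% ± 0.609 on day 5 (SD, n = 3 each). Small subunit genes held 31.8% ± 0.344 of the members' TPM without NGI-1 and 30.2% ± 0.283 by day 5 (SD, n = 3 each). On the rescaled values the sum over the 78 genes was lower on day 2 and higher on day 3 and day 5 than on day 0, at 4590 ± 129.8 on day 0, 4140 ± 116 on day 2, 6041 ± 504.3 on day 3 and 6915 ± 845 on day 5 (SD, n = 3 each). In bulk RNA, fewer cells of a kind and less RNA in each cell cannot be told apart.

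**Figure D1:**
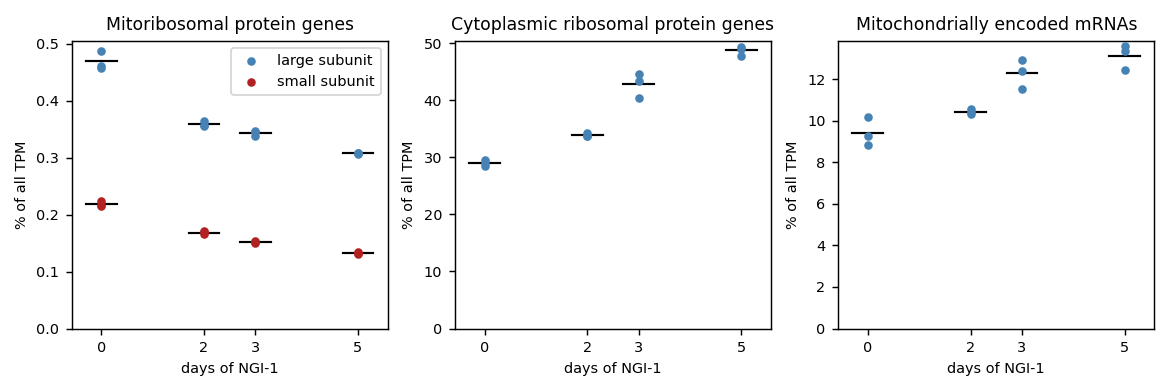
Share of all TPM (%) in each library against days of NGI-1, with points for libraries (n = 3 a day) and bars for means. The share of the mitoribosomal protein genes was lower on each later day in both subunits as deposited, although the rescaled sum was higher on day 3 and day 5 than on day 0, while the cytoplasmic ribosomal protein genes went from 28.9% to 48.7% and the mitochondrially encoded mRNAs from 9.42% to 13.1%.

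At day 2, 35 of the 78 genes were called lower and 0 higher as deposited, with a median log2 fold change of -0.47. Of all tested features, 23.2% were called lower and 8.04% higher. At an unadjusted limma p under 0.05, 2 members were higher on day 2. A total of 65 members lay below the median of all tested features, and 62 did so on the rescaled values, where 11 were called lower and 1 higher (11.4% and 12.9% of all features). The lower genes were 23 of the large and 12 of the small subunit. MRPL18, of a family that binds 5S rRNA in bacteria, had the largest fall, from 73.8, 73.1 and 76.8 TPM on day 0 to 36.1, 37.5 and 41.6 TPM on day 2, a log2 fold change of -0.94 ± 0.10 (SE, limma adjusted p = 6.77e-06). MRPL37 (-0.84) and MRPL39 (-0.81), both specific to mitochondrial ribosomes, and MRPL11 (-0.80), at the base of the stalk that recruits elongation factors, followed in the large subunit. In the small subunit the largest falls were in MRPS25 (-0.78), MRPS6 (-0.75) and MRPS12 (-0.74), the last a protein of the decoding centre. All 7 of these genes were also called lower after rescaling, and for each the 3 libraries of day 2 lay below the 3 of day 0.

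At the other end, MRPL32 was 0.43 (limma adjusted p = 0.000365), under the fold threshold as deposited and called higher after rescaling. MRPL10, a stalk protein, was at 24.5, 23.7 and 22.6 TPM on day 0 and at 28.2, 31.2 and 27.1 TPM on day 2, without overlap, but its adjusted p was 0.174 from limma. MRPL33 (0.26), MRPS33 (0.16), MRPS28 (0.12) and MRPS14 (-0.00377) were not called on day 2.

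By day 3, 50 members were called lower and 3 higher, against 61.5% and 7.59% of all tested features. The median of the members was -0.80, close to that of all features, and 43 of the 78 lay below it. After rescaling 13 were called lower and 23 higher, against 24.2% and 23.9% of all features. MRPL37 showed the largest fall on day 3 (-1.82), ahead of MRPL55 (-1.65) and MRPL38 (-1.50) in the large subunit and of MRPS25 (-1.64), MRPS27 (-1.58) and MRPS2 (-1.57) in the small. The 3 genes called higher were MRPS33 (0.82), MRPL32 (0.80) and MRPS28 (0.70). MRPL33 (0.33), MRPL50 (0.33), MRPL30 (0.28) and MRPS18C (0.18) came next and were not called.

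At day 5, 54 of the 78 genes (69.2%) were called lower and 4 (5.13%) higher, beside 69.8% and 7.73% of all tested features. The median was -1.11, within a range of -2.24 to 0.97. The middle of the members, between the quartiles, ran from -1.61 to -0.37, and that of all features from -1.56 to -0.36. After rescaling 18 were called lower and 27 higher, beside 26.9% and 27.5% of all features. In 63 of the 78 genes every day 5 library lay below every untreated library as deposited, in 9 every one lay above, and in 6 the days overlapped. The matching shares of all tested features were not counted, and their median change was -0.99. These counts are therefore no result particular to the members.

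The 78 genes followed a few courses against day 0 as deposited. Of all tested features, 23.2%, 61.5% and 69.8% were called lower on day 2, day 3 and day 5. Their shares by course were not counted, so the course counts are no result particular to the members. In 33 of the 78, from MRPL11 and MRPL12 to MRPS7 and MRPS9, the call was lower on all 3 days. In another 17, MRPL10, MRPS2 and MRPS5 among them, it was lower on day 3 and day 5 only. MRPL45, MRPL53, MRPS10 and MRPS22 were called lower on day 5 only, and MRPL13 and MRPL21 on day 2 only. The 4 genes called higher on any day were MRPL32, MRPS18C, MRPS28 and MRPS33. A further 18 were called on no day, including MRPL3, a protein near the peptidyl transferase centre, at 144 ± 3.10 TPM on day 0 and 104 ± 4.43 TPM on day 5 (SD, n = 3 each).

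**Figure D2:**
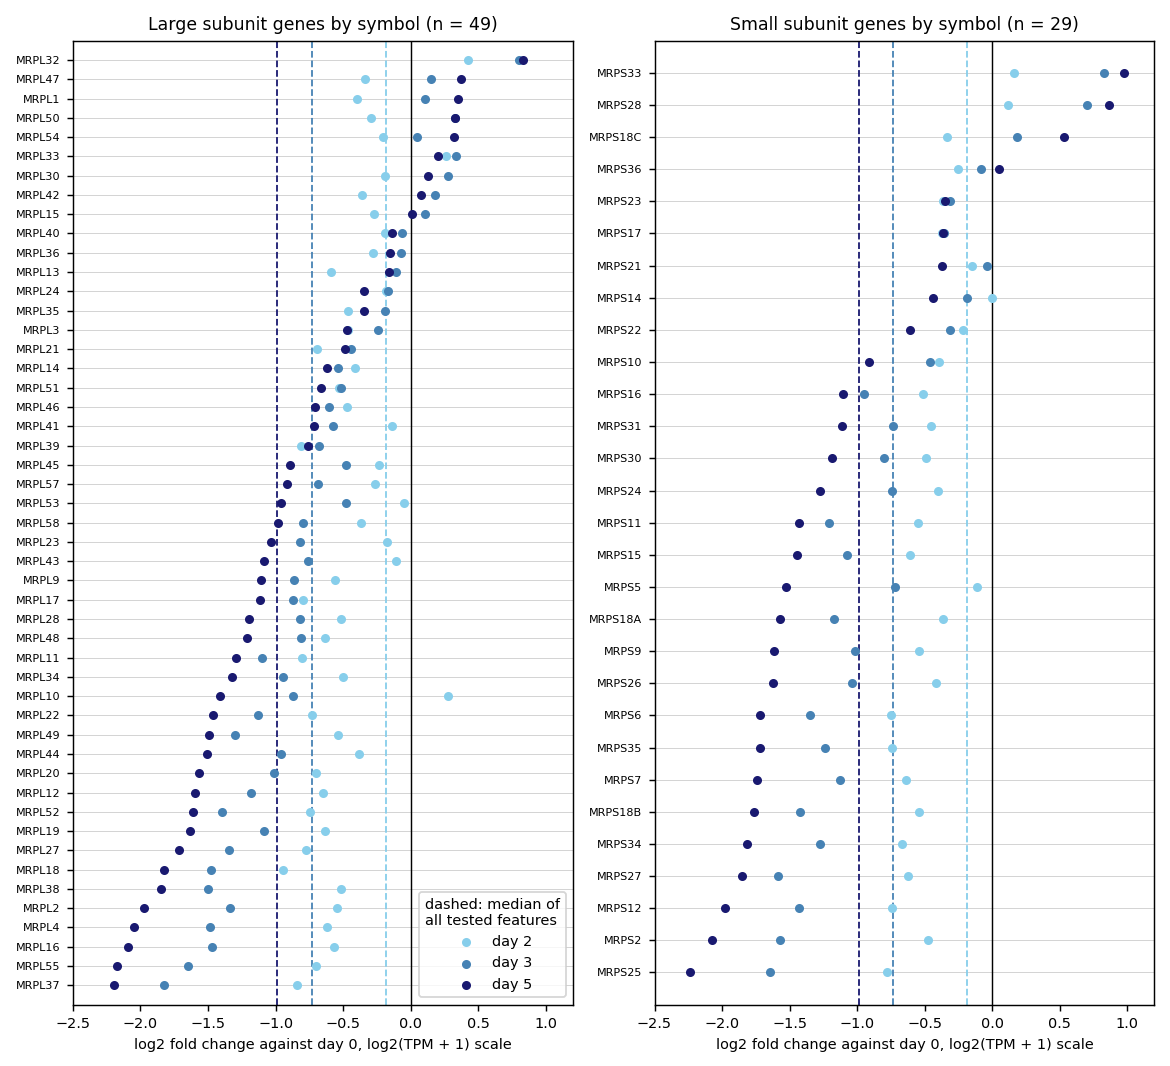
Log2 fold change of each of the 78 genes against day 0 on the deposited log2(TPM + 1) scale, with 1 row a gene sorted by its change on day 5, large subunit on the left and small on the right. Points are days (light to dark blue for day 2, 3 and 5) and dashed lines the medians of all 11939 tested features. In all, 4 genes were called higher and 54 lower on day 5 as deposited, and 27 higher and 18 lower after rescaling. Of all tested features, 7.73% were called higher and 69.8% lower as deposited, and 27.5% and 26.9% after rescaling.

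The 4 genes called higher on day 5 were higher on both scales. MRPS33, a small subunit protein with no bacterial counterpart, lay at 92.1, 105 and 95.8 TPM in the untreated libraries, 115, 102 and 111 on day 2, 175, 159.9 and 186 on day 3 and 202, 188 and 187 on day 5. The level was thus higher in every library of day 3 and day 5 than in any untreated library, and the log2 fold change on day 5 was 0.97 ± 0.08 (SE, limma adjusted p = 1.02e-07). MRPL32, a bacterial-type protein that is matured by a mitochondrial inner membrane protease, lay at 97.1, 102 and 103 TPM in the untreated libraries, 141, 126 and 139.9 on day 2, 184, 169 and 175 on day 3 and 174, 185 and 181 on day 5. It was above day 0 in all 9 treated libraries, with a change of 0.83 ± 0.07 (SE, limma adjusted p = 1.06e-07) on day 5.

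MRPS28 was measured at 89.3, 90.0 and 94.9 TPM in the untreated libraries, 92.2, 96.7 and 110.0 on day 2, 150.0, 148 and 148 on day 3 and 172, 159.8 and 169 on day 5, with the groups overlapping on day 2 and apart from day 3 on. Its change on day 5 was 0.86 ± 0.08 (SE, limma adjusted p = 1.57e-07). MRPS18C, 1 of 3 human paralogs of a bacterial small subunit protein, was at 64.5, 70.6 and 71.0 TPM in the untreated libraries, 53.6, 51.5 and 58.2 on day 2, 82.3, 75.1 and 76.5 on day 3 and 92.2, 99.3 and 108 on day 5. Its libraries were below day 0 on day 2, above it on day 3, and highest on day 5, where the change was 0.53 ± 0.09 (SE, limma adjusted p = 5.42e-05). The call of MRPS18C on day 5 ended without replicate 1 of day 0 (0.49) and without replicate 3 of day 5 (0.47), both just under the fold threshold. After rescaling these changes on day 5 were 2.19, 2.05, 2.08 and 1.74 for MRPS33, MRPL32, MRPS28 and MRPS18C. MRPL47 (0.37), MRPL1 (0.35), MRPL50 (0.33), MRPL54 (0.32) and MRPL33 (0.20) did not reach the fold threshold as deposited, although all 3 of their day 5 libraries lay above day 0.

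The largest falls brought levels to a small part of those in untreated cells. MRPS25, a mitochondria-specific protein of the small subunit, was at 56.8, 43.1 and 55.4 TPM in the untreated libraries, 32.5, 27.5 and 28.6 on day 2, 15.0, 17.7 and 14.8 on day 3 and 9.13, 10.03 and 11.2 on day 5. Each day lay below the day before without overlap, and the change on day 5 was -2.24 ± 0.13 (SE, limma adjusted p = 1.55e-09). MRPL37 was at 136, 128 and 135 TPM in the untreated libraries, 72.2, 76.7 and 72.7 on day 2, 35.2, 41.5 and 34.1 on day 3 and 25.3, 28.8 and 30.7 on day 5, again with no overlap between successive days, a change of -2.20 ± 0.10 (SE, limma adjusted p = 1.4e-10). MRPL55, of a family that joins the subunits in bacteria, was at 56.4, 47.3 and 49.3 TPM in the untreated libraries, 29.8, 35.3 and 27.9 on day 2, 15.1, 17.4 and 14.2 on day 3 and 8.63, 11.9 and 11.3 on day 5, a change of -2.17 ± 0.13 (SE, limma adjusted p = 3.77e-09).

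Their mean on day 5 was 19.5%, 21.3% and 20.8% of the mean on day 0. MRPL16, which lies near the peptidyl transferase centre, was at 22.4% (-2.09), MRPS2 at 22.8% (-2.08) and MRPS12 at 24.5% (-1.98). After rescaling, the changes of MRPS25, MRPL37, MRPL55, MRPL16, MRPS2 and MRPS12 on day 5 were -1.08, -0.99, -1.01, -0.91, -0.90 and -0.78, and all 6 were still called lower. Another 12 genes were lower on both scales on day 5, among them MRPL2 (-1.97), MRPL18 (-1.83), MRPL38 (-1.85), MRPS18B, MRPS26 (-1.63), MRPS27 (-1.85), MRPS34 (-1.82) and MRPS6 (-1.72).

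**Figure D3:**
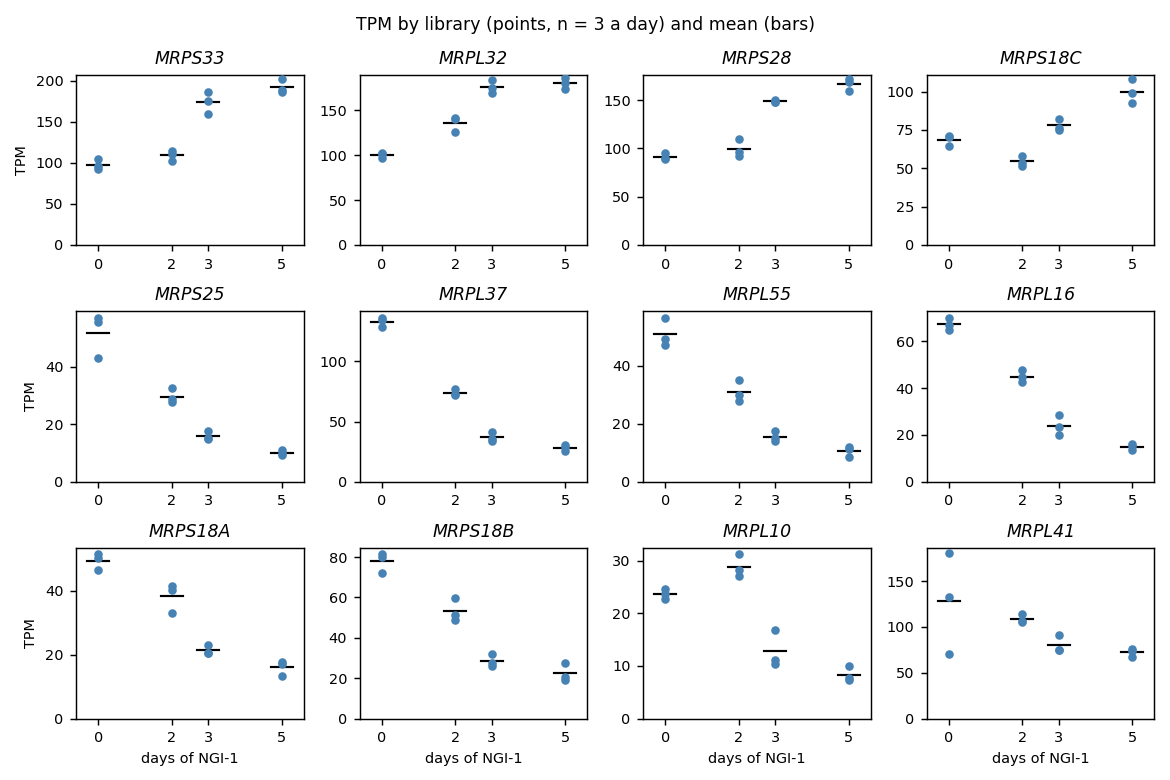
TPM of 12 mitoribosomal protein genes in each library (points, n = 3 a day) and their mean (bars) against days of NGI-1, each panel on its own axis from 0. The upper row shows the 4 genes called higher on day 5 on both scales, the middle row 4 of the largest falls on both scales, and the lower row MRPS18A, MRPS18B, MRPL10 and MRPL41, the last with untreated libraries from 70.6 to 180.2 TPM.

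The promoters of 3 genes called higher and of the 3 with the largest falls are printed below so that the 2 kinds can be compared. They are the 250 bases before the start that RefSeq gives on GRCh38.p14, 5′ to 3′ on the strand of the gene, and 69 of the 78 genes had an entry. MRPS28, the other gene called higher on day 5, had no entry and is not shown. Capitals mark matches, on either strand, to the motif of NRF1 (GCGCANGCG), of ETS factors (CCGGAAG), of YY1 (AAGATGGC) or to the E-box (CACGTG). The gene of MRPS33 lies at chr7:141002610-141015228, MRPL32 at chr7:42932200-42948958, MRPS18C at chr4:83455932-83469735, MRPS25 at chr3:15042460-15065335, MRPL37 at chr1:54184041-54225464 and MRPL55 at chr1:228106679-228109312 (GENCODE 29 on GRCh38). The GENCODE spans take in every transcript of a gene, and the annotations place many starts apart. Of the 69 windows, 21 lay wholly and 39 partly inside the GENCODE gene, and in 54 of 69 members bases just after the RefSeq start were found near the beginning of the principal GENCODE transcript. Of the windows shown, those of MRPL37 and MRPS33 were wholly inside, with RefSeq starts 16126 and 276 bases downstream of the GENCODE start, while 176 bases of MRPL32, 126 of MRPS18C, 20 of MRPS25 and 13 of MRPL55 were inside.
MRPS33 (chr7:141014953-141015202, minus strand): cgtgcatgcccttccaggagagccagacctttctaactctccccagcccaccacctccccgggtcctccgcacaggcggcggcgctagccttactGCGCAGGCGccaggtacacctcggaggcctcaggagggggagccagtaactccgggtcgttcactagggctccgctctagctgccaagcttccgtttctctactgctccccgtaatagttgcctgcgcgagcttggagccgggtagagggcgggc
MRPL32 (chr7:42932126-42932375, plus strand): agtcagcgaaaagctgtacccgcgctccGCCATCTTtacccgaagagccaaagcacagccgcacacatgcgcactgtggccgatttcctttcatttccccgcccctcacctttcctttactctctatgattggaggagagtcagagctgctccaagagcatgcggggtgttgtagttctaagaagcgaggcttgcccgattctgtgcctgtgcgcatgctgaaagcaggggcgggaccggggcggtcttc
MRPS18C (chr4:83455808-83456057, plus strand): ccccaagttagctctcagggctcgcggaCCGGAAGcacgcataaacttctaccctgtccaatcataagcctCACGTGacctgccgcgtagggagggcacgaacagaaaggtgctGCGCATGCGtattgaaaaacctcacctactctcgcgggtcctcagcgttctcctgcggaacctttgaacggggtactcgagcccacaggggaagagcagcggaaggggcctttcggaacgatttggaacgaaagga
MRPS25 (chr3:15065316-15065565, minus strand): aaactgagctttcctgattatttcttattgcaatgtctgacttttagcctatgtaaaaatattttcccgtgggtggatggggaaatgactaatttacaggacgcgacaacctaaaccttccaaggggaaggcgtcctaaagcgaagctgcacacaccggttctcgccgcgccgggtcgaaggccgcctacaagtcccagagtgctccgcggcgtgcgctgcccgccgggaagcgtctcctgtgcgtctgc
MRPL37 (chr1:54199917-54200166, plus strand): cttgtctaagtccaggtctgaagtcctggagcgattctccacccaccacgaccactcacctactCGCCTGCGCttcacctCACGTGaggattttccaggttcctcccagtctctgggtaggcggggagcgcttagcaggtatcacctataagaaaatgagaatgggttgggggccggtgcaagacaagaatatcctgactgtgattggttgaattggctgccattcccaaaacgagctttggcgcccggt
MRPL55 (chr1:228109300-228109549, minus strand): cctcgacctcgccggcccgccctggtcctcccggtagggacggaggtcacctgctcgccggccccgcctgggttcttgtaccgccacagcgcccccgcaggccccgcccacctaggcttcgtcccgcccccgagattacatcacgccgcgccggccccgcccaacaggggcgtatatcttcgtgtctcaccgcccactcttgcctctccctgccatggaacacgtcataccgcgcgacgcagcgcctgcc

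Within these windows, among the genes called higher, MRPS33 held an NRF1 motif, MRPL32 a YY1 motif, and MRPS18C an NRF1 motif, an ETS motif and an E-box. Among those with the largest falls, MRPL37 held an NRF1 motif and an E-box before its RefSeq start, while neither MRPS25 nor MRPL55 held any of the 4. NRF1 and the ETS factor GABP are known activators of nuclear genes for mitochondrial proteins. Over the 69 members, the ETS motif was present in 23 (33.3%), beside 17.8% of the 8941 tested features and 8.82% of all 27305 promoters of the same length. The NRF1 motif was in 13 (18.8%, beside 14.7% and 7.02%), the YY1 motif in 5 (7.25%, beside 2.07% and 1.37%) and the E-box in 6 (8.70%, beside 9.44% and 6.49%). GC-rich SP/KLF boxes (GGGCGG) were in 38 (55.1%, beside 68.7% and 42.3%), CCAAT boxes in 19 (27.5%, beside 36.3% and 33.04%) and TATA boxes (TATAAA) in 2 (2.90%, beside 4.88% and 11.1%).

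The 23 members with an ETS motif had a median log2 fold change of -0.91 on day 5, with 14 called lower and 1 higher. The 46 without had -1.38, with 37 lower and 2 higher, beside 69.8% and 7.73% of all tested features with or without the motif. With an NRF1 motif the median was -0.92 (13 genes) and without it -1.20 (56 genes). With a YY1 motif it was -0.15 (5 genes) and without -1.19 (64 genes). The order was the other way for CCAAT boxes, at -1.51 (19 genes) and -1.11 (50 genes). It was so too for SP/KLF boxes, at -1.30 (38 genes) and -1.09 (31 genes). With an E-box the median was -1.18 (6 genes) and without it -1.19 (63 genes). These are descriptions, and a match in this window does not show that a factor binds. In 22 of the 69 members (31.9%, beside 25.98% of tested features and 16.6% of all) another gene started within 1000 bases on the opposite strand and pointed away. Of 17 such partners tested, 12 were called lower on day 5, 0 higher and 5 neither, beside 69.8% lower and 7.73% higher of all features, and in 9 pairs both genes were lower. MRPL46 and MRPS11, whose starts lie 320 bases apart, were the only pair of 2 members, at -0.71 and -1.43 on day 5. The partners chosen here after their values were seen include HELQ, 175 bases from MRPS18C, at -1.10 beside 0.53, and PSMA2, 202 bases from MRPL32, at 0.11 beside 0.83.

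The median fold change of the small subunit lay below that of the large from day 3 on as deposited, but the gap between the median levels of the subunits overlapped between day 0 and day 5. At day 2 the median was -0.47 over the 49 large and -0.45 over the 29 small subunit genes. It was -0.76 and -0.95 on day 3, and -0.98 and -1.43 on day 5. Relative to all tested features, the day 5 medians were 0.01 for the large and -0.44 for the small subunit as deposited, and 0.21 and -0.22 after rescaling. Between libraries of 1 day the median of a subunit, taken relative to all features, varied with an SD of 0.12 (large) and 0.06 (small). The median log2(TPM + 1) level of the large subunit exceeded that of the small by 0.27 ± 0.08 on day 0, 0.09 ± 0.12 on day 2, 0.08 ± 0.05 on day 3 and 0.34 ± 0.15 on day 5 (SD over 3 libraries). The libraries ran from 0.18 to 0.32 on day 0 and from 0.17 to 0.47 on day 5, and on day 3 all 3 were lower than on day 0. At day 5, 33 large and 21 small subunit genes were called lower and 1 and 3 higher, beside 69.8% and 7.73% of all features. After rescaling 8 and 10 were lower and 18 and 9 higher, beside 26.9% and 27.5% of all features. No test of the difference between the subunits was made, since genes are not replicates.

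Symbols and structures do not match fully. In known structures MRPS18A and MRPS30 sit in the large subunit, and MRPS36 is now regarded as part of the oxoglutarate dehydrogenase complex. With these 3 genes moved or left out, the day 5 medians were -1.03 (51 genes) and -1.44 (26 genes). A further split followed the unified ribosomal protein names, with u or b names called bacteria-type and m names mitochondria-specific. MRPS18A and MRPS18B, although paralogs of a bacterial protein, have m names. The medians on day 5 were -1.11 over 30 bacteria-type and -0.96 over 21 mitochondria-specific large subunit genes. In the small subunit they were -1.35 over 16 bacteria-type and -1.67 over 10 mitochondria-specific genes. Of the last 10, 8 were called lower and 1 higher as deposited, beside 69.8% and 7.73% of all features. After rescaling the counts were 6 and 3, beside 26.9% and 27.5%.

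Of the 3 MRPS18 paralogs, MRPS18A and MRPS18B were lower and MRPS18C was higher on day 5 as deposited. MRPS18A was at 51.4, 46.6 and 50.3 TPM on day 0 and 13.4, 17.0 and 17.8 TPM on day 5, a log2 fold change of -1.57 ± 0.12 (SE, limma adjusted p = 3.03e-08). MRPS18B went from 80.0, 81.3 and 72.2 to 19.3, 20.7 and 27.3 TPM, a change of -1.77 ± 0.13 (SE, limma adjusted p = 2.13e-08). MRPS18C, described above, was called higher on both scales. MRPS18B was called lower on both scales, and MRPS18A as deposited only (-0.39 after rescaling). MRPS30 was at -1.19 ± 0.10 (SE, limma adjusted p = 5.58e-08) as deposited and at 0.00084 after rescaling. MRPS36 overlapped between day 0 (45.1, 50.99 and 47.2 TPM) and day 5 (51.3, 46.99 and 50.04 TPM), with a change of 0.05 ± 0.11 (SE, limma adjusted p = 0.678).

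Further members named by rule were among the genes called lower as deposited. MRPL12, a stalk protein also reported to bind mitochondrial RNA polymerase, was at 149, 149 and 167 TPM on day 0 and 47.3, 52.2 and 52.2 TPM on day 5, a change of -1.60 ± 0.08 (SE, limma adjusted p = 3.99e-10) as deposited and -0.39 after rescaling, where it was not called. MRPL11 was at -1.29 as deposited and -0.09 after rescaling. MRPL41 varied most between untreated libraries, with 70.6, 132 and 180.2 TPM, and overlapped with day 5 (66.7, 76.0 and 74.2 TPM). It was called lower on day 5 (-0.71 ± 0.23 (SE, limma adjusted p = 0.0111)), but its change ran from -1.09 without replicate 1 of day 0 to -0.42 without replicate 3, where it was not called. MRPL14 (-0.62), MRPL51 (-0.67) and MRPS22 (-0.61) were called lower on day 5 as deposited and higher after rescaling, at 0.59, 0.55 and 0.60.

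From day 2 to day 3, 27 members were called lower and 6 higher as deposited, beside 55.5% and 3.22% of all tested features. The median was -0.33 beside -0.57 over all features, and 23 of the 78 lay below that value. After rescaling 1 was called lower and 28 higher, beside 13.6% and 14.3% of all. MRPL10 had the largest fall (-1.15), from 28.2, 31.2 and 27.1 to 11.1, 16.8 and 10.3 TPM, followed by MRPS2 (-1.10). MRPS33 (0.66) and MRPL50 (0.62) had the largest rises, and the others called higher were MRPL1, MRPL42, MRPS18C and MRPS28. Without replicate 2 of day 2 only 3 members were called higher.

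From day 3 to day 5, 17 members were called lower and 0 higher as deposited, beside 13.1% and 0.67% of all features. At an unadjusted limma p under 0.05, 3 were higher. After rescaling limma called 0 lower and 6 higher, beside 2.03% and 4.43%, and 9 were lower at an unadjusted p under 0.05. MRPS5 had the largest fall, from 62.2, 66.5 and 56.3 to 30.3, 33.4 and 41.4 TPM (-0.81 ± 0.11 (SE, limma adjusted p = 0.000259)), and MRPL2 the next (-0.64). MRPS18C (0.35) and MRPL54 (0.28) had the highest values and were not called. Only 8 members were called lower without replicate 2 of day 3, and 9 without replicate 1 of day 5.

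**Figure D4:**
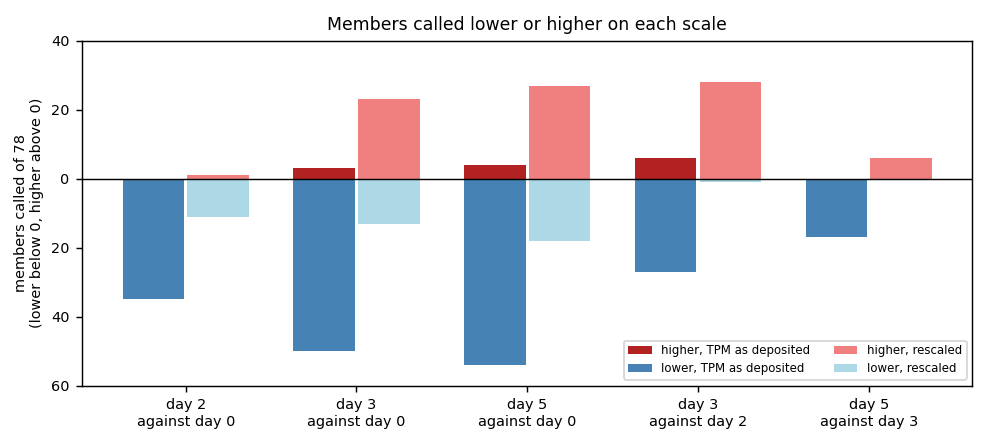
Number of the 78 genes called higher (above 0) or lower (below 0) in each of 5 comparisons, in dark colours for the TPM as deposited and in light colours after rescaling. Lower calls outnumbered higher ones in every comparison as deposited, and after rescaling in day 2 against day 0 only. Over all tested features lower calls also outnumbered higher ones in every comparison as deposited, and after rescaling in day 3 against day 0 only.

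The change varied with base composition within the members. Over the 78 genes, Pearson's r between the GC content of the principal transcript and the log2 fold change on day 5 was -0.489 (Spearman's rho -0.489), with -0.454 in the 49 large and -0.612 in the 29 small subunit genes. Over the 10579 tested features with a transcript it was -0.0884. At day 2 it was -0.118 over the members. These correlations are across genes measured in the same libraries, and genes are not independent replicates. With transcript length, r was -0.00942 over the members on day 5.

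The 26 members with the lowest GC, from 34.96% to 46.4%, had a median change of -0.35 on day 5, with 10 of 26 genes called lower and 4 higher as deposited. The next 26, up to 52.8%, had -1.11 with 22 lower and 0 higher, and the 26 highest, up to 71.9%, had -1.47 with 22 lower and 0 higher. After rescaling the medians were 0.87, 0.09 and -0.30. Among all tested features the same ranges of GC gave medians of -0.95, -1.18 and -1.13 as deposited. Their calls were not counted by range of GC, and 69.8% of all were called lower and 7.73% higher. MRPL50 and MRPS36, at 34.96% and 34.99%, had the lowest GC, and MRPL41, at 71.9%, the highest. Whether GC played a part in the measurement itself was not tested.

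**Figure D5:**
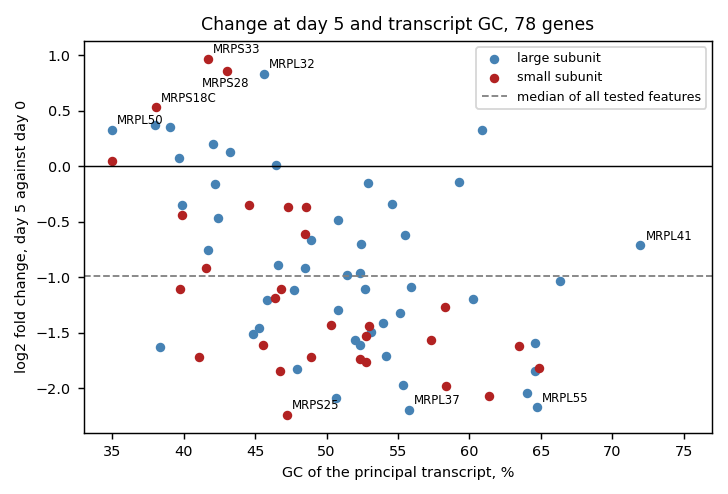
Log2 fold change on day 5 against day 0 (deposited scale) of the 78 genes against GC content of the principal transcript in percent, with large subunit genes in blue, small in red and the median of all tested features as a dashed line. The 4 genes called higher lie among the 26 genes of lowest GC, at up to 46.4%.

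Reads of some members can be shared with other features. The table lists 76 rows named as pseudogenes of 35 members, and in 2 members their summed TPM exceeded 5% of that of the gene, with 24.3% on day 0 for MRPS31 and 37.98% on day 5 for MRPL45. By annotation, exons of 16 members overlap another gene on the same strand and those of 29 a gene on the opposite strand, and whether reads were assigned by strand is not given in the sources used here. Among the genes called higher, MRPS28 overlaps another feature on the same strand, MRPL32 overlaps PSMA2 and MRPS18C overlaps ABRAXAS1 on the opposite strand, and MRPS33 overlaps none. Of the largest falls, MRPS25 overlaps NR2C2 and MRPL37 overlaps CYB5RL, SSBP3 and another feature on the opposite strand, while MRPL55 overlaps none. MRPS5 overlaps ZNF514 and MRPL53 overlaps CCDC142 on the same strand. The 19 members with neither an overlap nor a pseudogene row had a median of -1.11 on day 5. Of these, 14 were called lower and 0 higher, beside 69.8% and 7.73% of all tested features.

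Genes that work with the mitoribosome were counted the same way, beside 69.8% lower and 7.73% higher of all tested features on day 5 (26.9% and 27.5% after rescaling). Among 6 mitoribosomal proteins with other symbols, 4 of 6 (66.7%) were called lower and 0 higher on day 5 (1 and 2 after rescaling). DAP3, the small subunit protein that binds GTP, went from 326 to 98.8 TPM (-1.72 ± 0.09 (SE, limma adjusted p = 1.22e-09)), PTCD3 was at -1.64, and CHCHD1 at 0.16 was not called. Of the translation factors, 10 of 13 (76.9%) were called lower and 0 higher on day 5 (5 and 2 after rescaling). GFM1, which drives translocation, was lowest at -2.04, TUFM, which delivers tRNA, was at -1.74, and the initiation factor MTIF3 was highest at 0.38, not called.

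Of the assembly and rRNA modification factors, 25 of 26 (96.2%) were called lower and 0 higher on day 5 (5 and 2 after rescaling), beside the 69.8% and 7.73% of all features (26.9% and 27.5% after rescaling). MRM2, an rRNA methyltransferase, was lowest at -2.26 and GTPBP10, a GTPase of large subunit assembly, highest at 0.37, not called. Among the mitochondrial aminoacyl-tRNA synthetases and their relatives, 20 of 22 (90.9%) were called lower and 0 higher on day 5 (13 and 2 after rescaling). RARS2, which charges arginine, was highest of these (-0.29, not called). Of the tested genes for the upkeep of mitochondrial DNA and RNA, 18 of 21 (85.7%) were called lower and 1 higher on day 5 (8 and 5 after rescaling). The nuclease MGME1 was lowest (-2.51), TFAM, which packages mitochondrial DNA, was at -1.55, and the transcription elongation factor TEFM was highest, at 1.03 ± 0.10 (SE, limma adjusted p = 2.46e-07).

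Of 13 transcription regulators, 9 of 13 (69.2%) were called lower and 1 higher on day 5 (3 and 4 after rescaling), shares close to the 69.8% and 7.73% of all features. PPRC1, a coactivator, was lowest at -2.13 and the stress factor DDIT3 highest at 1.86. NRF1 was at -1.56, GABPA at -0.84, YY1 at -1.46 and MYC at -1.06, all 4 called lower as deposited, of which NRF1 was also lower after rescaling, while GABPA and MYC were then above 0. Among the mitochondrially encoded mRNAs, 0 of 13 (0%) were called lower and 5 higher on day 5 (0 and 13 after rescaling), from -0.12 for MT-ATP6 to 1.15 for MT-CO1. The rRNAs of the mitoribosome, as measured in these libraries, went against most of the mRNAs for its proteins as deposited. Whether removal of rRNA before sequencing affected these rRNA values was not tested. MT-RNR1 was at 894 ± 65.9 TPM on day 0 and 1425 ± 36.7 TPM on day 5 (SD, n = 3 each), a change of 0.67 ± 0.11 (SE, limma adjusted p = 4.4e-05). MT-RNR2 was at 4353 ± 155 and 8890.2 ± 295 TPM (SD, n = 3 each), a change of 1.03 ± 0.06 (SE, limma adjusted p = 2.28e-09). Both stayed higher after rescaling, at 1.90 and 2.26.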

How the data were processed

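Total RNA from MM1S cells was measured in 12 libraries, with 3 at each of day 0, 2, 3 and 5 of NGI-1. The authors deposited 1 table of log2(TPM + 1) values for 59276 features by gene symbol. The submitters' processing notes name FastQC, Trimmomatic, STAR, Salmon and hg38, and versions and annotation are not given in the sources used here. The labels state 200 ng of RNA per library.

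The log2 was undone to obtain TPM. The 11939 features at or above 1 TPM in 3 or more libraries entered limma 3.58.1 in R 4.3.3, with 1 mean per group, a mean-variance trend and a pseudocount of 1. Two-sided p-values were adjusted by the Benjamini-Hochberg method over all tested features within each of 5 comparisons, and the procedure was tested on simulated data. A fold change on this scale understates the change of low genes. For rescaled values, each library was divided by a factor that brings to 0 the median of its log2 ratios to the average library, taken over 5433 features whose mean TPM was 10 or more. GC, length, exons and overlaps came from GENCODE 29, using the principal coding transcript, and promoters from RefSeq. Tables were handled with Python 3.11.15 and figures drawn with matplotlib 3.10.9.

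The members and lists were chosen with earlier results of these data known. Named members are the 3 lowest and 3 highest per subunit against day 0, the 2 lowest and 2 highest between neighbouring days, the 3 most and least abundant per subunit at day 0, up to 6 members a day with opposite calls on the 2 scales, and MRPS18A, MRPS18B, MRPS18C, MRPS30, MRPS36, MRPL12, MRPL11, MRPS12, MRPL3 and MRPL41. Per pathway list the lowest and highest gene at day 5 are named, except 1 gene that is not reported here, and TFAM, TUFM, DAP3, PTCD3, NRF1, GABPA, YY1, MYC, MT-RNR1 and MT-RNR2 always. Members named for a course, a motif, a partner gene or shared reads were chosen after their values were seen. The alternatives tried were rescaling, a pseudocount of 0.1, no filter or a minimum of 5 TPM, removal of the 20 most abundant features, fits of 2 groups at a time, no trend, a fold change threshold of 1, subunits by structure, and leaving out each library in turn. Proteomic and other measurements of the study were not analysed here.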

Additional observations from a re-analysis of the deposited data

Results flagged for a closer look

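Some members differed between neighbouring treated days by the test of the difference itself, limma's comparison of those days as deposited. The later days had no untreated library, so time in NGI-1 and time in culture cannot be told apart in these comparisons. Between day 2 and day 3, 27 members were called lower and 6 higher, beside 55.5% and 3.22% of all tested features. Between day 3 and day 5, 17 were called lower and 0 higher, beside 13.1% and 0.67% of all features. The 17 became 8 without replicate 2 of day 3 and 9 without replicate 1 of day 5. In that interval 3 members were higher at an unadjusted limma p under 0.05. After rescaling the counts were 1 and 28 for the first interval, beside 13.6% and 14.3% of all features. They were 0 and 6 for the second, beside 2.03% and 4.43%. With 3 libraries a group, no rule for outlying values was applied, and libraries were instead left out in turn.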

How the results depend on the processing

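No paired analysis was possible because the labels give no replicate numbers and nothing else pairs libraries across days. Depth cannot be judged from TPM, 3 libraries a day carry the spread, and time in culture cannot be told apart from time in NGI-1. Rescaling turned the sign of 12 of the 78 members on day 2, 31 on day 3, 29 on day 5, 33 from day 2 to day 3 and 35 from day 3 to day 5, and the TPM of every gene depends on the share taken by the most abundant transcripts.

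Under rescaling, 11 members were lower and 1 was higher on day 2, 13 and 23 on day 3, 18 and 27 on day 5, 1 and 28 from day 2 to day 3, and 0 and 6 from day 3 to day 5. Of all tested features, 11.4% were lower and 12.9% higher on day 2, 24.2% and 23.9% on day 3, and 26.9% and 27.5% on day 5. The shares were 13.6% and 14.3% from day 2 to day 3, and 2.03% and 4.43% from day 3 to day 5. It placed the subunit medians relative to all features at -0.066 (small) and 0.11 (large) on day 3, -0.22 and 0.21 on day 5, and 0.22 and 0.39 from day 2 to day 3. Leaving out the 20 most abundant features gave 1 member higher on day 2, 6 on day 3, 9 on day 5 and 11 from day 2 to day 3, and 8 lower from day 3 to day 5, where pairwise fits gave 11. A fold change threshold of 1 left 0 lower on day 2, 29 on day 3, 2 from day 2 to day 3 and 0 from day 3 to day 5, and 0 higher on day 3, day 5 and from day 2 to day 3. For these settings other than rescaling, the shares of all tested features were not counted.

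With no filter, the subunit medians relative to all features were -0.45 (small) and -0.47 (large) on day 2, -0.91 and -0.72 on day 3, -1.37 and -0.92 on day 5, -0.42 and -0.25 from day 2 to day 3, and -0.34 and -0.19 from day 3 to day 5. A TPM minimum of 5 gave -0.20 (small) on day 2, -0.057 and 0.13 on day 3, -0.22 and 0.23 on day 5, and 0.20 (small) from day 2 to day 3. A pseudocount of 0.1 gave -0.0792 and 0.10 on day 3, -0.24 and 0.21 on day 5, and 0.23 and 0.39 from day 2 to day 3. The cause of these shifts was not tested.

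Leaving out 1 library gave 34 to 38 lower on day 2, 48 to 52 on day 3, 53 to 56 on day 5, 26 to 28 from day 2 to day 3 and 8 to 19 from day 3 to day 5. Higher calls ran from 0 to 0, 3 to 3, 3 to 4, 3 to 9 and 0 to 0. Shares of all tested features without single libraries were not counted. The relative medians of the small subunit ran from -0.31 to -0.24 on day 2, -0.28 to -0.16 on day 3, -0.46 to -0.39 on day 5, 0.094 to 0.18 from day 2 to day 3 and -0.15 to -0.10 from day 3 to day 5. Those of the large subunit ran from -0.34 to -0.24, -0.06 to 0.03, -0.07 to 0.11, 0.23 to 0.31 and -0.02 to 0.13. With subunits by structure, chosen after seeing the data, all 10 relative medians moved by less than the spread between libraries.

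Among the genes named by rule, rescaling on day 5 turned the sign of MRPL14 (0.59), MRPL24 (0.88), MRPL3 (0.75), MRPL39 (0.44), MRPL41 (0.50), MRPL51 (0.55), MRPL53 (0.26), MRPL57 (0.19), MRPS14 (0.76), MRPS17 (0.79), MRPS21 (0.85), MRPS22 (0.60), MRPS30 (0.00084), MRPS31 (0.013), GABPA (0.25), MYC (0.14), RARS2 (0.87) and MT-ATP6 (1.11), and without the 20 most abundant features RARS2 (0.014) and MT-ATP6 (0.21) turned. MRPS14 on day 2, at -0.0038, turned under rescaling (0.22), without the 20 most abundant features (0.089) and without single libraries, which gave -0.044 to 0.040. MRPL15 on day 5, at 0.0086, ran from -0.081 to 0.083 over single libraries.

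For the pathway lists, whose alternatives were added after seeing the data, rescaling on day 5 gave 1 lower and 2 higher proteins without an MRP symbol, 5 and 2 translation factors, 5 and 2 assembly factors, 13 and 2 synthetases, 8 and 5 upkeep genes, 3 and 4 regulators and 13 higher mitochondrial mRNAs. On this scale 26.9% of all tested features were lower and 27.5% higher. Without the 20 most abundant features 1 translation factor and 1 assembly factor were higher. A fold change threshold of 1 left 1 mitochondrial mRNA and 1 mitochondrial rRNA higher. The shares of all tested features under the settings other than rescaling were not counted.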
